A study of Macaca fascicularis with 132 samples.

Results

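In the RNA of macaque blood cells, 92 genes lay close to control on the log2(CPM+1) scale for the first 12 h with interleukin-15 and were lower than control at 48 h. They were chosen by their measured values: a gene entered if its mean in some control group reached 5 CPM (counts scaled to one common library total), which left 10811 genes. IL-15 minus control on the log2(CPM+1) scale, averaged over 4 animals, had to be under 0.3 in size at 2, 6 and 12 h and at or under -0.8 at 48 h. The differences at those 4 times are therefore a description of the choice, and 24 h is the one time whose difference was not used. Control levels at 24 h did enter the choice, through the minimum of 5 CPM.

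Peripheral blood mononuclear cells (PBMCs) from 4 cynomolgus macaques, 2 females and 2 males by their labels, were kept outside the body with or without the heterodimer of IL-15 and its receptor alpha chain (IL-15Ra). The groups used here are IL-15 cultures (heterodimer at 40 ng/ml) sampled at 2, 6, 12, 24 and 48 h, and control cultures (0 ng/ml) sampled at 0, 2, 6, 12, 24 and 48 h. Each animal gave 3 numbered libraries per group, whose counts were summed, so n is 4 animals throughout. Nothing in the labels says whether these libraries are separate cultures. The p-values take out each animal's own level. They measure how unevenly these animals changed between groups, pooled over all groups. Ages are not in the labels. The design text speaks of more animals than the 4 analysed here.

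IL-15 is a cytokine of the common gamma chain family that keeps natural killer cells and memory CD8+ T cells alive and drives their growth. Its alpha chain presents it to cells that carry the beta and common gamma chains, which signal through JAK1, JAK3 and STAT5. PBMCs are a mixture of T cells, B cells, natural killer cells and monocytes. In culture, monocytes attach and differentiate, and the shares of the cell types shift with time. In such bulk RNA, fewer cells of a type and less RNA per cell cannot be told apart.

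The gene IDs of the counts carry no symbols, and none matched the reference table, so no role can be given to a member, no cell type marker could be checked, and only 4 IDs are named. Libraries held 16423972 to 87944372 counts (median 27185130), and the sums 54376963 to 126025607. Of these libraries, 3 stood farther from their sister libraries than the rest: library 1 of the control at 48 h of animal 38142, library 2 of IL-15 at 24 h of animal 38147 and library 3 of the control at 2 h of animal 38157. In the first of these, the members' values lay a median of -0.43 (log2) from the mean of its 2 sisters, against -0.08 over all 10811 genes. Without the 3 libraries the same choice kept 88 of the 92, which made up 84.6% of the genes it then gave.

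Members are 14.7% of the 627 genes that met the 48 h limit, since the other 535 were past the limit at an earlier time. The member nearest to the late limit had a difference of -0.803 at 48 h, and the nearest gene outside had -0.795. At the early limit, the values just inside and just outside were 0.2990 and 0.3002. Within 0.05 of either limit lay 34 members, close enough to move across it with small changes in scaling. With CPM scaled by TMM, 94 genes met the limits, and 57 of them are among the 92. With 1 animal left out, the genes so chosen held 59 to 80 of the 92. The mirror image, a rise of at least 0.8 at 48 h within the same early limits, was met by 146 genes.

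Many members were scarce before 24 h. The mean level in control cells at 0 h spanned 0 to 420 CPM, with a median of 9.26 CPM. It was at least 5 CPM for 57 members and under 1 CPM for 24, and 31 members passed 5 CPM only in control cultures at 24 or 48 h. A fall of 0.3 on the log2(CPM+1) scale is impossible under 0.231 CPM, and 6 members were under that level in control cultures at 2, 6 and 12 h. For these 6 the early limit on a fall could not be passed. At 1 or more of 2, 6 and 12 h, 12 members were under that level in control. In control at all of these times, 14 members were under 1 CPM. Closeness also depends on the scale. By edgeR's log2 fold change, with TMM scaling, 9, 18 and 24 members were at or past 0.3 in size at 2, 6 and 12 h. Of these, 5, 13 and 9 were at or under -0.3, so that most were lower with IL-15 at 6 h and higher at 12 h. The members' median at 12 h was 0.10. At 12 h edgeR called 1 member lower with IL-15 (log2 fold change -2.73, although its difference of log2(CPM+1) was -0.14) and 1 higher (0.69), where 14.01% of all genes tested were called lower and 17.5% higher. At 2 h it called 0 members, against 0.495% of all genes lower and 1.67% higher, and at 6 h 0 members, against 3.54% lower and 5.12% higher. At an unadjusted p under 0.05 it found 1 lower and 1 higher at 2 h, and 1 lower and 2 higher at 6 h. The choice held the differences at 2, 6 and 12 h small, so these counts are a description. Of the 5448 genes within the same early limits, 0.239% were called lower and 0.0918% higher at 2 h. At 6 h it was 0.0551% and 2.06%, and at 12 h 0.0367% and 23.4%. DESeq2 was run for the 24 h comparisons alone.

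The difference between IL-15 and control cultures had medians of -0.02, -0.04 and -0.07 at 2, 6 and 12 h, -0.60 at 24 h and -1.13 at 48 h (log2, 92 members). Over all 10811 genes the medians were 0.02, -0.03, -0.15, -0.14 and -0.07. At 48 h the members ranged from -3.64 to -0.80, with 52 at or under -1 and 9 at or under -2. edgeR called 89 of 92 lower at 48 h, against 19.98% of all genes tested, a count that follows from the choice.

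**Figure D1:**
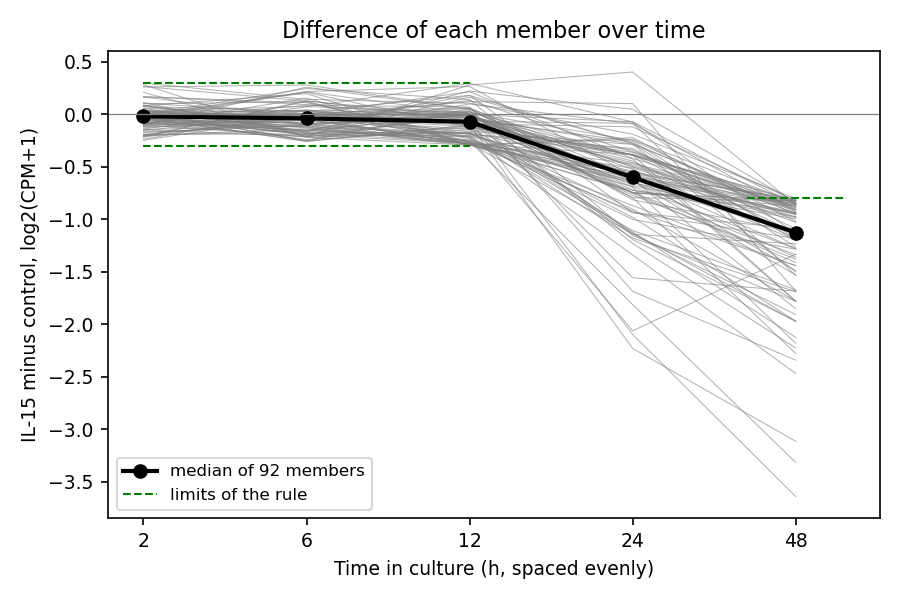
IL-15 minus control on the log2(CPM+1) scale (mean of 4 animals) at each time in h, with 1 grey line per member, the median of the 92 in black and the limits of the choice as dashed green lines. The lines lie within 0.3 until 12 h by choice, and the median is -0.60 at 24 h, the time whose difference was not used, although its control levels counted toward the minimum of 5 CPM.

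The first comparison asked whether the members already differed at 24 h, a time whose difference the choice did not use. The 31 members that passed 5 CPM only in control at 24 or 48 h may owe their place to a high control level at 24 h, which favours a lower call. The test called 43 of 92 members (46.7%), all lower with IL-15, against 18.98% of the 18197 genes tested (edgeR quasi-likelihood test, adjusted p under 0.05, n = 4 animals). Called higher were 0 members, against 20.03% of all genes, and 0 members were higher at an unadjusted p under 0.05. DESeq2 called 47 lower and 0 higher, against 20.6% and 17.7% of all genes. The median log2 fold change was -0.47 over the members and -0.05 over all genes tested. Among the 57 members with at least 5 CPM before culture, which needed no later rise to be counted, 21 were lower (36.8%), against 19.99% of all genes at that level. Without the 3 libraries that stand apart, 40 members were called lower, against 19.7% of all genes.

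On the log2(CPM+1) scale, 75 members were at or under -0.3 at 24 h and 24 were already at or under -0.8. A group of 16 members was still within 0.3 of control at 24 h, with a median of -0.20. These 16 had a median of -0.94 at 48 h. A single member was 0.40 higher with IL-15 at 24 h, in 4 of 4 animals, and 0.86 lower at 48 h. At 24 h its mean level was 81.3 CPM with IL-15 and 62.3 CPM in control, and at 48 h 51.6 CPM with IL-15 and 95.1 CPM in control. Its log2 fold change at 24 h was 0.57 ± 0.28 in the fit of all groups (SE; edgeR adjusted p = 0.109). It passed the test in a fit of both 24 h groups alone (0.60, edgeR adjusted p = 0.0178) and with a block for each animal and time (0.58, edgeR adjusted p = 0.00678). It did not pass with DESeq2 (adjusted p = 0.105), or in edgeR with RLE, no filter, no animal term or without the 3 libraries. With 1 animal left out, the edgeR adjusted p was 0.0963 to 0.453. This member was picked by its 24 h difference, so these values are a description.

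The call at 24 h rests on differences within animals. Of the 92 members, 64 (69.6%) were lower in 4 of 4 animals, against 38.7% of the 10811 genes. A further 24 were lower in 3 of 4. Among the 57 members with at least 5 CPM at 0 h, 37 were lower in 4 of 4. The other 27 of the 64 are among the 35 that reached 5 CPM only in a later control group. A choice by a high control level may favour a lower value at 24 h, so the full count is a description. The ranges of both groups did not overlap for 16 members (17.4%), against 17.03% of the 10811 genes, a share near the background. At 48 h they did not overlap for 48 members, against 13.5% of the genes, in samples that the choice used. Between animals of 1 group the members' values had a median SD of 0.46 with IL-15 and 0.48 in control at 24 h, against 0.18 and 0.19 between libraries of 1 animal. Without a term for the animal, 11 members were called lower, and the share of all genes called lower was 6.59%.

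**Figure D2:**
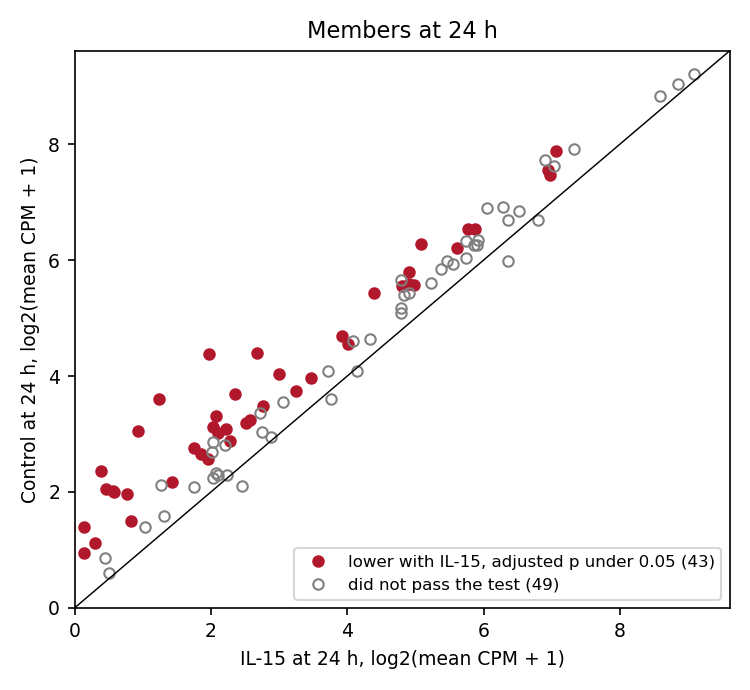
Level at 24 h with IL-15 (x axis) and in control (y axis) as log2(mean CPM + 1) over 4 animals, 1 point per member; the line marks equal levels. The 43 filled points were lower with IL-15 by the test, and the 49 open points did not pass it.

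All 4 animals showed the difference, with unlike size. At 24 h the members' median was -0.73 in animal 38142 (female), -0.67 in 38147 (male), -0.63 in 38155 (female) and -0.44 in 38157 (male). The medians of all 10811 genes in the same order of animals were -0.11, -0.13, -0.23 and -0.08. Lower with IL-15 at 24 h were 87, 85, 83 and 79 members, against 59.3%, 63.6%, 68.3% and 58.3% of all 10811 genes. At 48 h the medians were -1.34, -1.23, -1.17 and -0.89, so that animal 38157 had the smallest difference at both times. Its root mean square difference over all 10811 genes was also the smallest of the animals, 0.517 at 24 h and 0.542 at 48 h. The others lay between 0.597 and 0.728 at 24 h and between 0.631 and 0.742 at 48 h. Their part in the result was not tested.

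**Figure D3:**
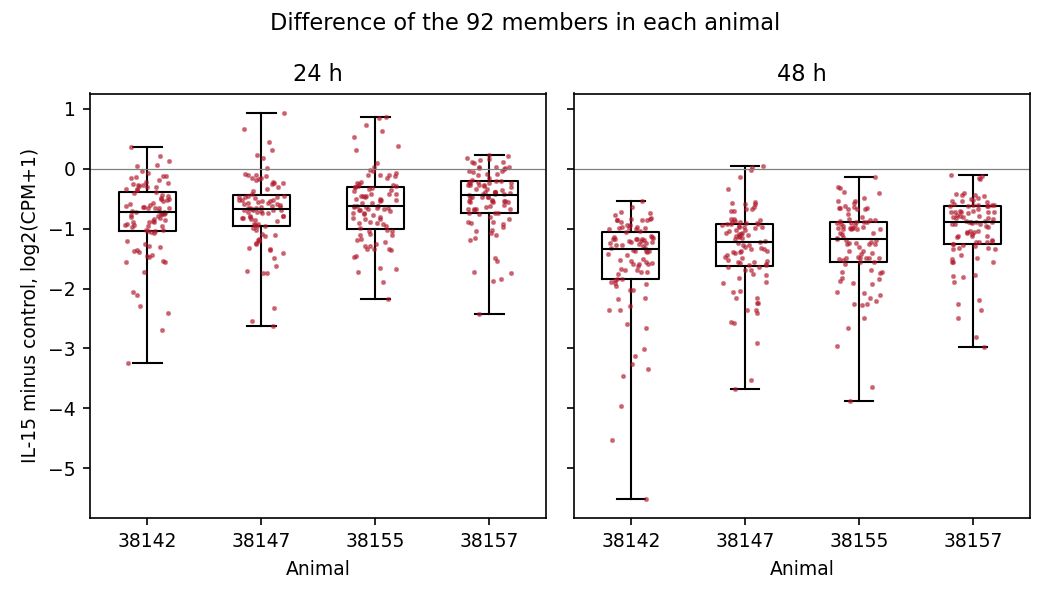
IL-15 minus control (log2(CPM+1)) of each of the 92 members in each animal at 24 h (left) and 48 h (right). Boxes give the median and quartiles and whiskers the full range. The medians lie between -0.73 and -0.44 at 24 h and between -1.34 and -0.89 at 48 h, smallest in size in animal 38157.

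The 48 h difference was also read in an animal that had no part in the choice. The same limits were applied to 3 animals, and the genes so chosen were looked up in the fourth. In animal 38142, 97.4% of 77 genes were lower with IL-15 at 48 h, with a median of -1.40. In 38147, 91.5% of 82 genes were lower (median -1.25). In 38155 it was 97.9% of 94 genes (median -0.99), and in 38157 99.1% of the genes (median -0.75). Of all genes of at least 5 CPM, 54.9% to 59.2% were lower in these animals. The column names carry tokens (Lib1 or Lib2, with GL numbers or "merged") that may mark batches. Within 1 animal and 1 token, the members' median was -0.60 and -0.66 at 24 h (2 pairings, both of animal 38155), against -0.20 and -0.24 over all 10811 genes. At 48 h it was -0.94 to -1.29 (6 pairings, all 4 animals), in libraries that chose the members, so that low values there follow from the choice. No pairing exists within a token for the other animals at 24 h.

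The next comparison asked what the members did in culture without IL-15. Of the 57 members with at least 5 CPM at 0 h, 24 rose by 24 h of control culture (42.1%) and 12 fell (21.1%), while 21 did not pass the test. Of all genes at that level, 29.5% rose and 34.9% fell. The median log2 fold change was 0.27 for these members and -0.05 for the genes at that level. Over all 92 members 56 rose, 12 fell and 24 did not pass, beside 30.1% and 25.4% of all genes tested. The 35 members under 5 CPM at 0 h had to reach 5 CPM in a later control group to be counted, and 32 of the 56 are among them. The group of 12 that fell became 6 without animal 38142, where 22.8% of all genes fell.

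The control mean was highest at 48 h, among the 6 times, for 75 members (81.5%), against 34.3% of the 10811 genes, in samples that also entered the choice. The members' median change in control culture against 0 h was -0.07, 0.01, 0.21, 0.87 and 1.59 (log2) at 2, 6, 12, 24 and 48 h. With IL-15 it was -0.03, 0.00, 0.10, 0.33 and 0.55. For all 10811 genes the change at 48 h was 0.27 with IL-15 and 0.33 in control.

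**Figure D4:**
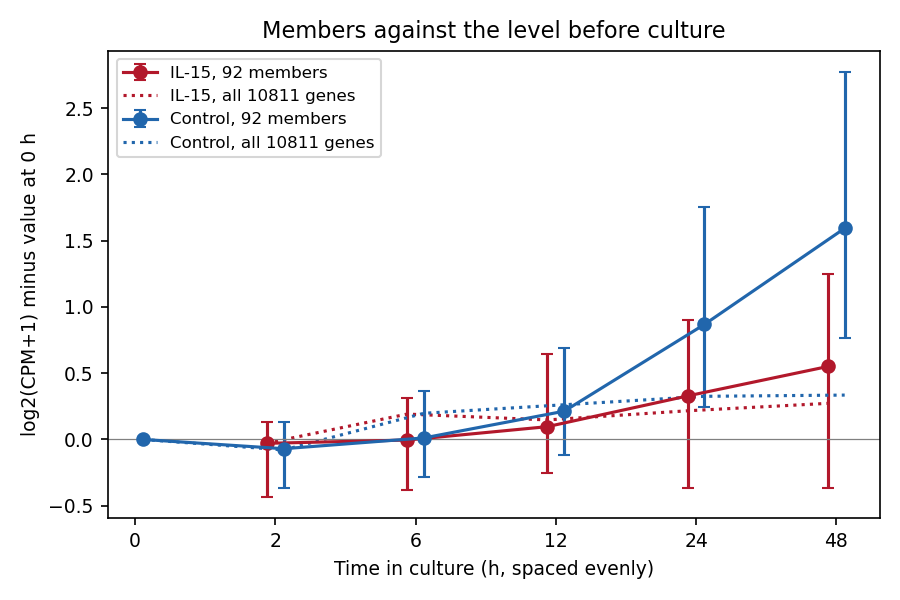
Change of log2(CPM+1) from control cells at 0 h over time in h, with IL-15 (red) and in control (blue); points are medians and bars quartiles over the 92 members, and dotted lines are medians over all 10811 genes. At 48 h the members' median is 0.55 with IL-15 and 1.59 in control.

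Set against the cells before culture, IL-15 cultures at 24 h were higher for 43 members and lower for 26, and 23 did not pass the test (edgeR, adjusted p under 0.05). Of all genes tested, 32.5% were higher and 28.3% lower, so that the share of members lower (28.3%) was at the background. Of the 5448 genes within the same early limits, 42.3% were higher and 28.2% lower, so that the share of members higher (46.7%) was near theirs. Among the 57 members of at least 5 CPM at 0 h, 19 were higher (33.3%) and 23 lower (40.4%), against 37.7% and 34.9% of all genes at that level. This comparison shares its 0 h sums with that of control culture, and the IL-15 comparison at 24 h shares its control sums with it, so that their counts are not independent of each other.

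By their means at 48 h, members fall into 3 sets. The largest, 60 members, was above the 0 h level in both cultures, with a median change of 0.99 with IL-15 and 2.50 in control. A second set of 21 was above it in control (median 0.73) and not with IL-15 (median -0.39). The last 11 were below it in both cultures, with a median of -1.80 with IL-15 and -0.68 in control. At 24 h, whose cultures did not define these sets, 27 of the 60, 11 of the 21 and 5 of the 11 were lower with IL-15 than in control by the test, beside 18.98% of all genes. The sets of 60 and 21 hold members that passed 5 CPM only in later control groups, so their counts are a description. The 9 members at or under -2 at 48 h had a median of 0.16 CPM before culture. At 24 h their median was 0.49 CPM with IL-15 and 4.12 CPM in control. All 9 were under 5 CPM at 0 h and passed the minimum only through later control groups, so these levels are a description.

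The 2 IDs with the lowest 48 h difference, among members with at least 5 CPM in control at 0 and 48 h, were ENSMFAG00000031854 and ENSMFAG00000042891. ENSMFAG00000031854 was at 0.883, 8.09, 3.16 and 5.33 CPM with IL-15 at 48 h in animals 38142, 38147, 38155 and 38157, against 15.5, 41.7, 8.86 and 14.2 CPM in control. Every IL-15 value lay below every control value. Before culture it was at 1.60, 5.68, 5.17 and 9.93 CPM. At 24 h it was at 0.566, 5.20, 2.30 and 5.08 CPM with IL-15 and at 3.23, 12.3, 4.89 and 7.91 CPM in control. The groups overlapped at 24 h, while each animal was lower with IL-15. Its log2 fold change at 24 h was -1.18 ± 0.38 (SE; edgeR adjusted p = 0.0132). That call was lost without animal 38142 (-0.85, adjusted p = 0.0765) or 38147 (-1.23, adjusted p = 0.0509). In control culture it differed from 0 h by 0.13 ± 0.37 at 24 h (edgeR adjusted p = 0.793).

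ENSMFAG00000042891 was the more abundant in reads. At 48 h it stood at 44, 132.3, 48.9 and 58.05 CPM with IL-15 in the same order of animals, against 202.3, 554.5, 208.5 and 146.3 CPM in control. The groups did not overlap, and animal 38147 was far above the other 3 in both. At 24 h it was at 25.9, 51.9, 21.4 and 32.6 CPM with IL-15 and at 69.01, 131.5, 38.4 and 67.97 CPM in control. The groups overlapped in 1 pair of values, since 51.9 CPM with IL-15 exceeds 38.4 CPM in control. The log2 fold change was -1.01 ± 0.33 (SE; edgeR adjusted p = 0.0156), and without animal 38142 it was -0.96 (adjusted p = 0.0914). At 0 h the values were 53.96, 31.8, 32.3 and 68.3 CPM, and control culture at 24 h differed from them by 0.32 ± 0.33 (edgeR adjusted p = 0.426). Between 2 and 12 h the group means were 44.3 to 67.6 CPM with IL-15 and 53.6 to 69.3 CPM in control.

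The 2 IDs with the largest change in control culture by 24 h on the log2(CPM+1) scale, which holds down the change of genes near 0, were ENSMFAG00000031298 and ENSMFAG00000002506. Their control values at 24 h and 0 h made the choice and are a description, and since the control values at 24 h also enter their IL-15 comparison, and those at 0 h the comparison with cells before culture, no test is given for them. ENSMFAG00000031298 was at 50.4, 101.9, 19.8 and 46.9 CPM in control at 24 h in the same order of animals, against 0.439, 1.74, 0.395 and 2.44 CPM at 0 h. Most of this gain was there at 2 h, with a mean of 35.3 ± 12.1 CPM with IL-15 and 32.4 ± 13.6 CPM in control (SD, n = 4 animals). With IL-15 it stood at 18.6, 44.7, 8.68 and 44.2 CPM at 24 h, nearly level with control in animal 38157. The log2 fold change of IL-15 over control was -0.87 ± 0.34 at 24 h (SE), and -0.70 without animal 38142. Both are given as a description, since a choice by a high control level at 24 h favours a low value.

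ENSMFAG00000002506 shows the late pattern from a low start. Up to 6 h its group means were 0.346 to 0.537 CPM in both cultures, and at 12 h they were 0.914 ± 0.410 CPM with IL-15 and 1.11 ± 0.71 CPM in control (SD, n = 4 animals). At 24 h it was at 1.75, 7.31, 0.841 and 1.83 CPM with IL-15 in the same order of animals, against 25.1, 40.4, 4.11 and 9.38 CPM in control. At 48 h the values were 4.66, 39.4, 2.90 and 7.28 CPM with IL-15, against 128.9, 179.1, 29.4 and 57.3 CPM in control. Each animal was lower with IL-15 at both times, and the ranges overlapped through the high value of animal 38147 with IL-15. It passed 5 CPM only through control at 24 and 48 h. Its log2 fold change of IL-15 over control at 24 h was -2.64 ± 0.49 (SE), given as a description.

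**Figure D5:**
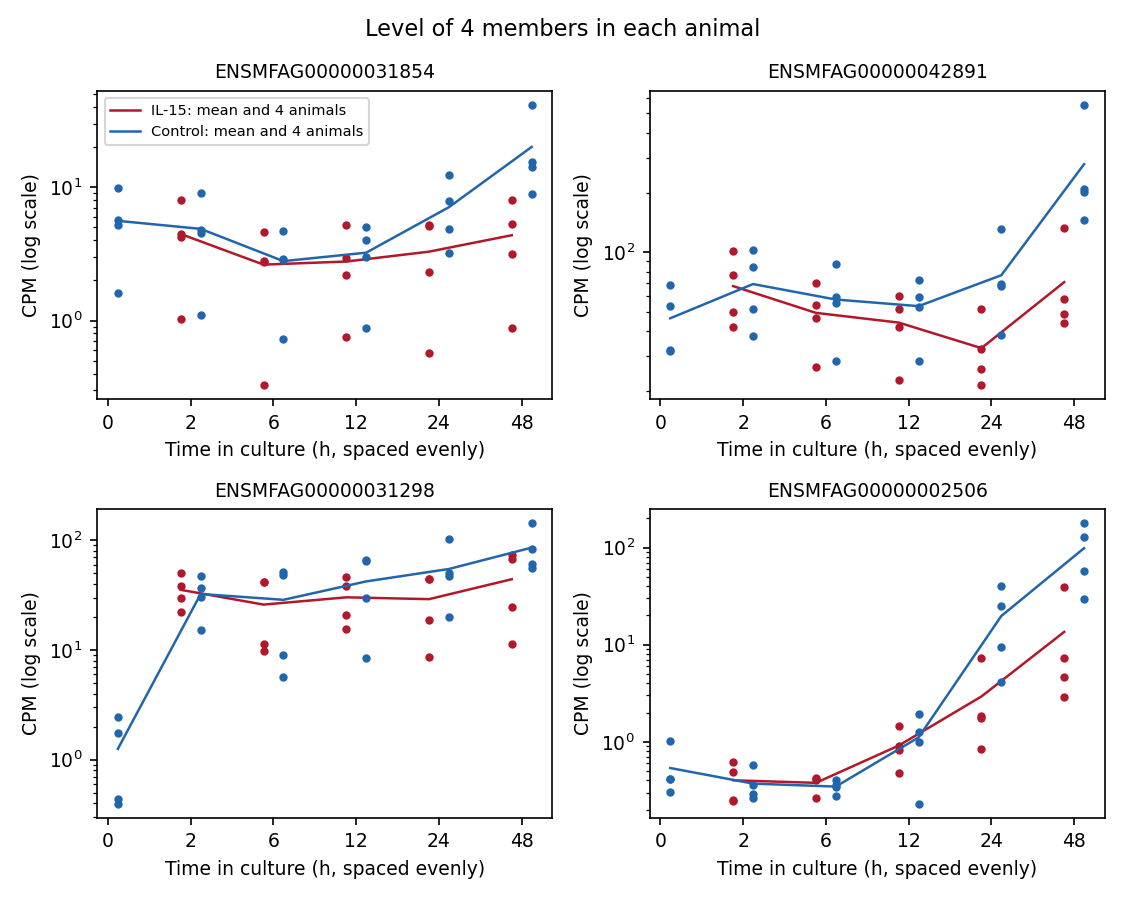
CPM (log scale) of the 4 named members over time in h with IL-15 (red) and in control (blue); points are the 4 animals and lines their means. At 48 h all 4 have a lower mean with IL-15, as the choice requires, and ENSMFAG00000031298 was already above 30 CPM in the means of both cultures at 2 h.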

How the data were processed

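The authors deposited whole-number counts per gene, 3 libraries for each of 44 pairs of animal and group, with cynomolgus macaque gene IDs in one table and rhesus macaque IDs in the other. RNA came from RNeasy Mini columns and libraries from the KAPA mRNA HyperPrep chemistry, per the labels' protocols. Aligner, counter, build and annotation were not given in the sources used here. Members and lists were chosen with earlier results of these data known.

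Counts of the 3 libraries per animal and group were summed, since nothing says they are separate cultures. No sister libraries agreed within sampling noise (lowest chi-square per degree of freedom 3.57). Tests used edgeR 4.0.16 in R 4.3.3: TMM, filterByExpr (18197 genes, all 92 members), robust quasi-likelihood, all 11 groups and the animal as terms, and Benjamini-Hochberg adjustment over all genes tested. SE is the fold change over the root of F. Sums of the same animal deviated together from their group means in 20 of 20 pairs (lowest r 0.571), so the animal pairs the samples. CPM used library totals and a pseudocount of 1. The 24 h test of IL-15 against control was also run on simulated counts, and its outcome is not reported here. DESeq2 1.42.0, RLE, other filters, blocks and left-out animals were alternatives. Gene lists and marker checks needed symbols and were not run. Named IDs are the 2 members with the lowest 48 h difference, at 5 CPM or more in control at 0 and 48 h, and the 2 with the largest control change by 24 h. Counts of amplified reads are not independent molecules.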

Additional observations from a re-analysis of the deposited data

Results flagged for a closer look

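Spread over the 4 animals was checked in 22 sets of values, those of each named member at 0 h and in both cultures at 24 and 48 h and the members' median differences at 24 and 48 h. In 5 of these, all of them in CPM, 1 animal stood well apart. A chance rate of about 1 in 20 holds only for independent sets of normally distributed values. These sets share animals and genes, and CPM was taken here without a log, which widens gaps at the high end. The count of 5 in 22 is therefore a description and cannot be read as an excess over chance. Animal 38147 was the high one for ENSMFAG00000042891 at 48 h, at 132.3 CPM with IL-15 and 554.5 CPM in control, and for ENSMFAG00000002506 with IL-15, at 7.31 CPM at 24 h and 39.4 CPM at 48 h. For ENSMFAG00000002506 before culture, animal 38157 was high at 1.01 CPM.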

How the results depend on the processing

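The count of members lower with IL-15 at 24 h, 43 as reported, was 11 with no replicate block, 57 with a replicate block of animal and time, 68 with libraries entered singly and 65 with the column-name token added. The share of all genes called lower was 6.59%, 22.7%, 32.1% and 32.2% in these fits, against 18.98% as reported. Libraries of 1 animal are not independent, so the last 2 treat them as more replicates than they are. With 1 animal left out it was 30 to 46, beside 13.7% to 18.4% of all genes. In the other alternatives on the 92 members it was 39 to 47, beside 9.59% to 21.1% of all genes. With rhesus IDs, where the choice gives another and larger set of genes, the count was 55, beside 21.7% of all genes. It is not like for like with 43 of 92. The ranges that follow include the rhesus counts, and those of the 2-group fits against 0 h, which tested 91 and 87 members. Called higher was 1 member, the same ID each time, in place of 0 in the 2-group fit, with the block of animal and time, with libraries singly and with the token. The count that fell in control culture by 24 h, 12, was 7 without the filter on low counts (14.2% of all genes). It was 6 with no replicate block (17.5% of all genes) and 6 to 10 with 1 animal left out (22.4% to 24.4%). The count lower with IL-15 at 24 h than at 0 h, 26, was 13 with no replicate block. In that fit the share of all genes called lower fell as well, from 28.3% as reported. Those that rose in control culture numbered 45 to 63 over 13 alternatives, against 56, and those higher with IL-15 than at 0 h 33 to 47, against 43. The lowest of these counts, 45 and 33, came with no replicate block, where 21.8% and 26.1% of all genes were called. With the token added the counts were 63 and 47, beside 36.6% and 37.2% of all genes. As reported, the shares of all genes were 30.1% and 32.5%. Both shares were lowest without the filter on low counts, at 16.7% for the rise in control culture. The choice itself gave at least 64 genes and stayed within 1.5 times its count over 15 alternatives. The rhesus table and the removal of the 3 libraries were chosen after seeing the data. The cause of these changes was not tested. Low levels limit the early differences, and with 4 animals the spread of their differences limits single calls.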
